A study of Gallus gallus with 2 samples.

Results

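The TADs of chicken microchromosomes GGA11 to GGA27 in HD3 cells are described here, that is, all TADs that the deposited list places on a chromosome numbered from 11 to 27. They were 475 of the 2389 TADs in the list (19.9%), or 21.97% of the TADs on autosomes. HD3 (LSCC-HD3) is a continuous line of chicken erythroblasts, derived from erythroid precursors that an avian erythroblastosis virus with a temperature-sensitive defect had transformed. Both samples belonged to 1 group, with the same line, medium and temperature (37 °C), and no treatment, genotype or time was compared. Hi-C was carried out on 2 biological replicates, and their valid contacts were combined before TADs were called on bins of 50 kb, so no TAD has a replicate error. The HD3 karyotype is rearranged and aneuploid, while the list follows the order of the GalGal5 reference chromosomes, so a TAD on a derivative chromosome cannot be told apart from 1 on its normal counterpart. The list holds coordinates only, and neither the labelled cell type nor the sequencing depth behind a TAD could be checked from it.

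TADs are stretches of the genome whose loci contact each other more often than they contact the sequence outside, and in vertebrates many of them form through loop extrusion by cohesin that is halted at bound CTCF. Their borders limit contacts between enhancers and promoters on opposite sides. Microchromosomes are a hallmark of bird karyotypes: they are small and acrocentric, with a high density of genes and of GC bases, they replicate early, and they tend to lie in the nuclear interior. In chicken erythroid cells, the α-globin gene cluster, which encodes a subunit of hemoglobin, lies on a microchromosome. No annotation of GalGal5 was used, so TADs are given by position and no gene is assigned to them. Positions are counted from 1 in GalGal5.

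TADs were listed on 14 of the 17 chromosomes with these numbers. GGA16, GGA22 and GGA25 had no TAD in the list. The study left GGA16 out of its search for abnormal contacts, for its few uniquely mapped reads and poor assembly. Why these chromosomes had no TAD was not tested. The span of a chromosome was measured from its start to its last TAD end, and it fell from 20.25 Mb on GGA11 to 5.25 Mb on GGA26. On 9 microchromosomes the span was at least 10 Mb, while the other 5 (GGA21, GGA23, GGA24, GGA26 and GGA27) were all under 7 Mb. Together the 14 chromosomes spanned 163.1 Mb, of which 85.7% lay inside TADs. They had 567 distinct TAD boundaries, that is, starts and ends counted once where TADs adjoin, or 3.48 per Mb. The start of the first TAD and the end of the last TAD of each chromosome were counted among them. The first TAD began at position 1 on 12 chromosomes, whereas it began at 500001 on GGA17 and at 700001 on GGA13. In the list 0 pairs of neighbouring TADs overlapped, so it records a single level of domains.

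**Figure D1:**
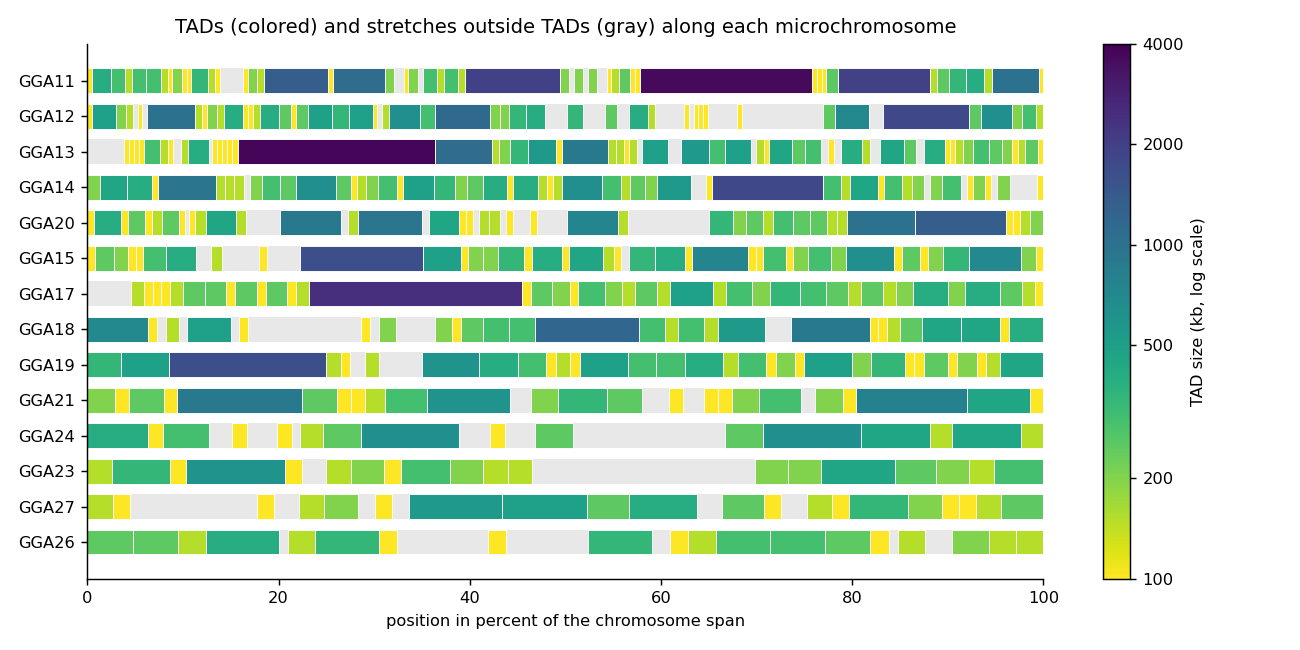
TADs along the 14 microchromosomes, in order of falling span from top to bottom, with position in percent of the chromosome span on the x axis and TAD size in kb as color on a log scale. Gray marks sequence outside TADs: GGA17 has none after its first TAD, while stretches of 1000 kb or more lie in GGA12, GGA18, GGA20, GGA23 and GGA24. Each row is scaled to its own span, so widths in kb cannot be compared between rows.

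Most TADs of the microchromosomes were small. Their median size was 200 kb, or 4 bins, with quartiles at 100 and 300 kb. The smallest size in the list, 100 kb or 2 bins, was that of 133 TADs (28.0%), and another 85 (17.9%) had a size of 150 kb. In all, 360 of the 475 TADs (75.8%) were no larger than 300 kb. This share was 71.8% on GGA5 to GGA10 and 66.7% on GGA1 to GGA10. At the other end of the range, 18 TADs (3.79%) reached 1 Mb or more. These few large TADs held 22.2% of all sequence inside TADs, against 9.51% in the TADs of 100 kb. The mean size was therefore well above the median, at 294 ± 362 kb (SD, n = 475 TADs).

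**Figure D2:**
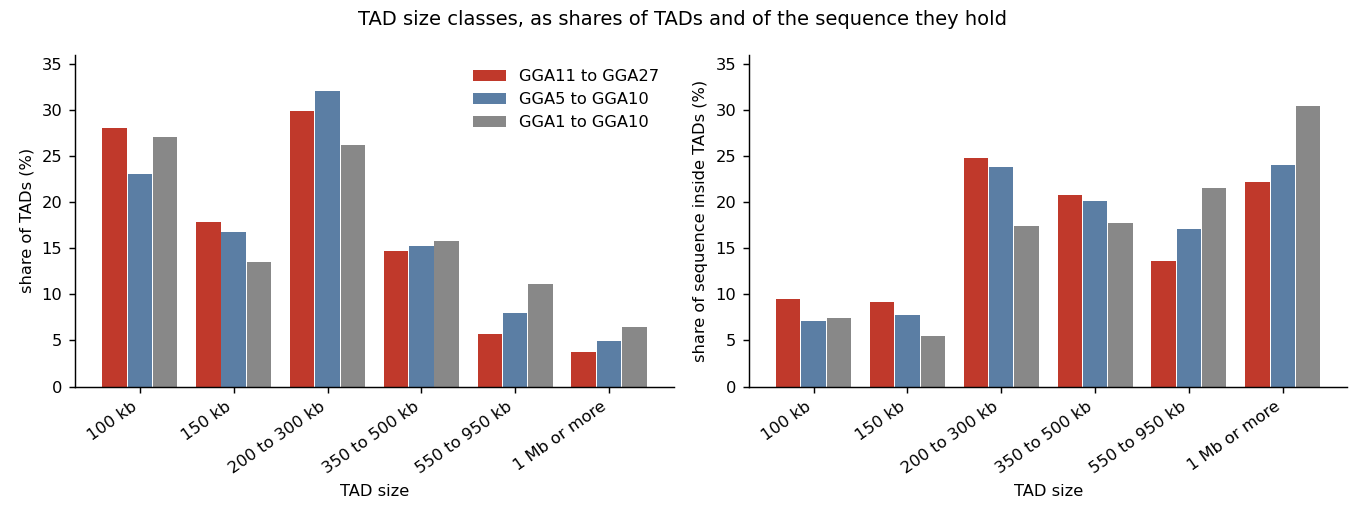
Size classes of TADs on GGA11 to GGA27 (475 TADs), GGA5 to GGA10 (550 TADs) and GGA1 to GGA10 (1687 TADs), the last of which includes GGA5 to GGA10. Bars give the share of TADs (left) and of the sequence inside TADs (right) in percent for each size class in kb: TADs of 550 to 950 kb make up 5.68% of those on microchromosomes and 11.1% on GGA1 to GGA10.

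TADs of 550 kb or more made up a smaller share on microchromosomes than on the larger chromosomes. The median over all TADs was 200 kb on microchromosomes, on GGA5 to GGA10 and on GGA1 to GGA10. The upper quartile was 300, 350 and 400 kb in the same order. TADs of 550 to 950 kb made up 5.68% on microchromosomes, 8.0% on GGA5 to GGA10 and 11.1% on GGA1 to GGA10. TADs of 1 Mb or more made up 3.79%, 4.91% and 6.46% in the same order. The share of TADs with 100 kb was 28.0% on microchromosomes, 23.1% on GGA5 to GGA10 and 27.1% on GGA1 to GGA10. Shares of mid-sized and large TADs thus rose from microchromosomes to GGA1 to GGA10, whereas that of the smallest TADs was lowest on GGA5 to GGA10. These shares are pooled over TADs, and the test of the difference, with the chromosome as the unit, is given further on.

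All 18 TADs of 1 Mb or more lay on the 9 microchromosomes that span at least 10 Mb, and the 5 shorter chromosomes had none. The shorter ones also held fewer TADs, from 16 on GGA24 to 24 on GGA21, against 27 on GGA18 to 52 on GGA13 among the longer ones. Over all microchromosomes 3.79% of TADs reached this size. Whether the shorter chromosomes fell below that share was not tested. GGA11 held 6 of the 18 TADs, GGA12 had 3, GGA13 and GGA20 had 2 each, and GGA14, GGA15, GGA17, GGA18 and GGA19 had 1 each. The largest TAD of the microchromosomes lay on GGA13 from 2900001 to 6700000 and spanned 3800 kb, which was 23.1% of all TAD sequence of that chromosome. It was preceded by 5 adjoining TADs of 100 kb each and followed by a TAD of 1100 kb. The next largest TAD, of 3650 kb, lay on GGA11 from 11700001 to 15350000. It adjoined 2 TADs of 100 kb on one side and 3 TADs of 100 kb on the other. A TAD of 2450 kb on GGA17 from 2550001 to 5000000 stood out more sharply from the other TADs of its chromosome, since the second largest TAD of GGA17 had a size of 500 kb. The next in size were both on GGA11, with 2000 kb from 8000001 to 10000000 and 1950 kb from 15900001 to 17850000.

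The chromosomes without a TAD of 1 Mb had a narrower range of sizes. On GGA21 the largest TAD reached 900 kb and on GGA24 650 kb. It was 600 kb on GGA23, 550 kb on GGA27 and 400 kb on GGA26. Such a maximum depends on the number of TADs from which it is taken, which fell from 52 on GGA13 to 16 on GGA24, so it is not comparable across chromosomes without regard to their length. The SD of sizes within a chromosome was highest on GGA11, at 639 kb (n = 49 TADs), and lowest on GGA26, at 96.1 kb (n = 19 TADs).

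**Figure D3:**
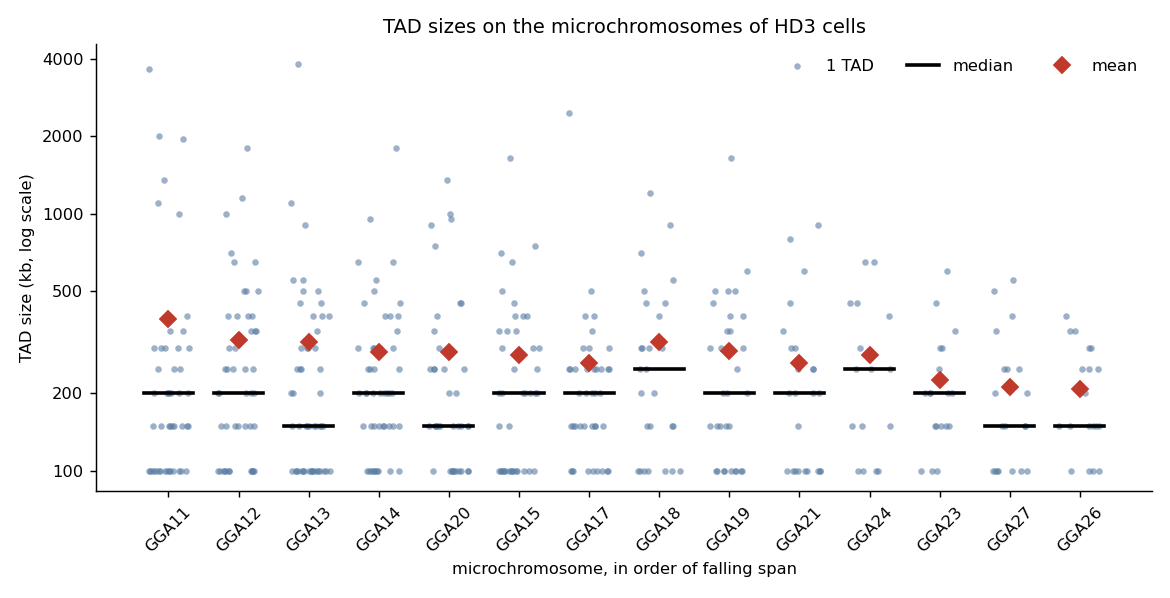
Size of every TAD (points, in kb on a log scale) on the 14 microchromosomes, which are placed in order of falling span. Black bars are medians, which stay between 150 and 250 kb, and red diamonds are means, which run from 389 kb on GGA11 to 208 kb on GGA26.

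The median TAD size of the microchromosomes lay between 150 and 250 kb and averaged 193 ± 33.1 kb (SD, n = 14 chromosomes). It took only 3 values, since sizes are whole numbers of bins: 150 kb on 4 chromosomes (GGA13, GGA20, GGA26 and GGA27), 200 kb on 8, and 250 kb on 2 (GGA18 and GGA24). Both the group with the lowest and the group with the highest median included chromosomes of more than 10 Mb and of less than 7 Mb. Across the 14 chromosomes the median showed no relation to the span (Pearson r = -0.06, Spearman rho = 0.06). These points share the same list, bin size and combined contacts, and the coefficients given here and in what follows are descriptions of the 14 chromosomes without a test.

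The mean TAD size, by contrast, followed the span closely. It was highest on GGA11, at 389 kb, followed by 323 kb on GGA12, 317 kb on GGA18 and 316 kb on GGA13. From there it ran through 294 kb on GGA19, 290 kb on both GGA14 and GGA20, 282 kb on GGA15 and 281 kb on GGA24. Below these were GGA17 and GGA21, both with 262.5 kb. The lowest means belonged to the 3 shortest chromosomes, with 226 kb on GGA23, 212.5 kb on GGA27 and 208 kb on GGA26. GGA11, GGA18 and GGA24 stood above the chromosomes of like span, and the latter pair also had the highest median. Across the 14 chromosomes Pearson r between mean size and span was 0.84 and Spearman rho was 0.86. Without GGA11 and GGA12, whose spans lie farthest from the median span, r was 0.76 (n = 12), and with any single chromosome left out it stayed between 0.80 and 0.88. The upper quartile of size, which ran from 250 to 425 kb, had a weaker relation to the span (r = 0.18, rho = 0.31). When the largest TAD of each chromosome was left out, r for the mean was 0.76, so the relation did not rest on a single TAD per chromosome. Without GGA11 and GGA12 this r was 0.57 (n = 12). Other large TADs remained in this calculation, and whether the relation rests on the few largest TADs was not tested.

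**Figure D4:**
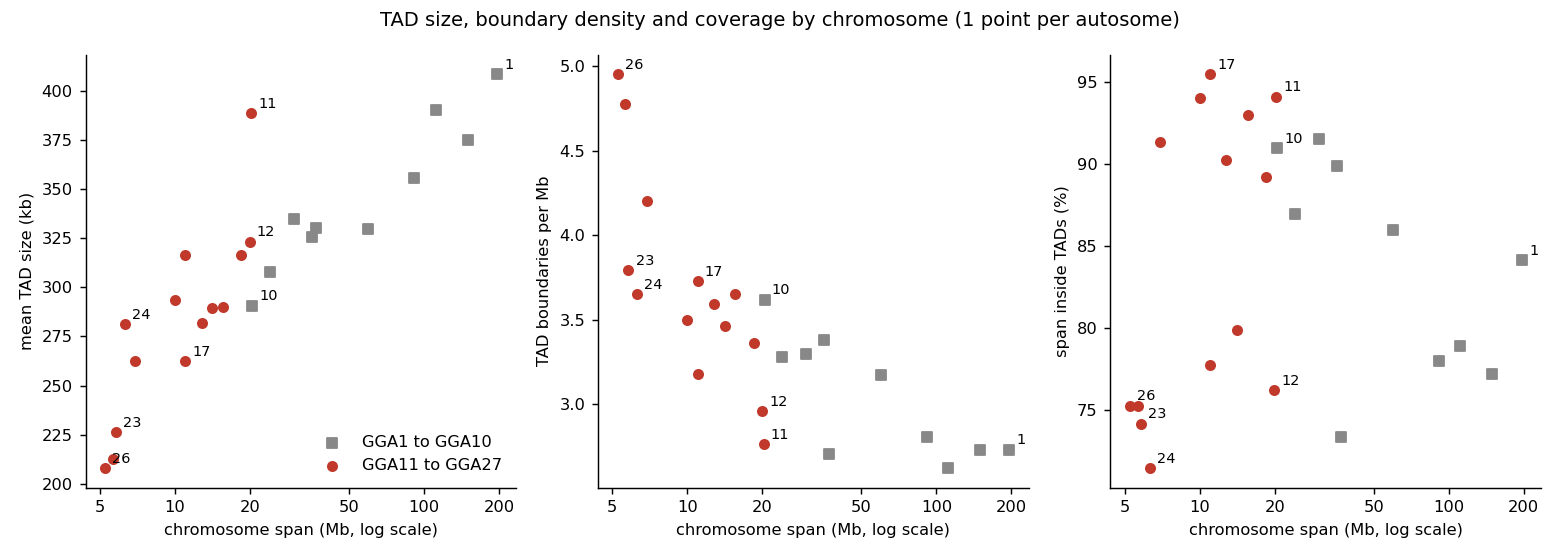
Mean TAD size in kb (left), TAD boundaries per Mb (middle) and share of the span inside TADs in percent (right) against chromosome span in Mb on a log scale, with 1 point per autosome (red circles, GGA11 to GGA27; gray squares, GGA1 to GGA10; some are marked with their number). Among microchromosomes, mean size rises and boundary density falls with span, while coverage splits into a group at or above 89.2% and a group at or below 79.9%.

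The density of TAD boundaries ran the opposite way. It was lowest on the 2 longest microchromosomes, with 2.77 boundaries per Mb on GGA11 and 2.96 on GGA12, and GGA18 came next with 3.18. The middle group was narrow, from 3.36 on GGA13 to 3.79 on GGA23, and it took in chromosomes from 5.8 to 18.45 Mb. The highest densities were found on GGA21 (4.20), GGA27 (4.78) and GGA26 (4.95), all under 7 Mb. GGA24, with 3.65, was the short chromosome with the lowest density. Pearson r between density and span was -0.79 and Spearman rho was -0.83, and r was -0.67 without GGA11 and GGA12 (n = 12). When TADs themselves were counted, the relation was looser (r = -0.61), from 2.36 TADs per Mb on GGA12 to 3.64 on GGA17, and without GGA11 and GGA12 r was -0.37 (n = 12). Boundary density, mean size and coverage depend on each other by arithmetic, so these trends are not separate observations. In addition, the outermost start and end of each chromosome count as boundaries, and they add more per Mb on a short chromosome. Part of the trend in boundary density therefore follows from the span itself, and how large this part is was not computed.

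Coverage by TADs followed chromosome length less closely and fell into 2 separate groups of 7 chromosomes. In the first, the share of the span inside TADs was 95.5% on GGA17, 94.1% on GGA11 and 94.0% on GGA19. It was 92.9% on GGA14, 91.3% on GGA21, 90.2% on GGA15 and 89.2% on GGA13. In the other group it was 79.9% on GGA20, 77.7% on GGA18 and 76.2% on GGA12. The remaining 4 chromosomes of that group were short ones, with 75.2% on both GGA26 and GGA27, 74.1% on GGA23 and 71.4% on GGA24. No microchromosome lay between 79.9% and 89.2%, whereas GGA1 (84.1%), GGA5 (86.0%) and GGA9 (86.9%) did. The well-covered group held chromosomes from 6.9 to 20.25 Mb and the other from 5.25 to 19.95 Mb, so the groups overlapped in span over nearly the whole range. GGA11 and GGA12, which differ in span by a few bins, stood in different groups. Across the 14 chromosomes r between coverage and span was 0.42 and rho was 0.53. The Armatus parameter γ, which sets the preferred size of domains, was varied over a narrow range in the study, and the value used for each chromosome is not given in the sources used here, so its part in these differences was not tested. The split was noticed in the data, and no test was made of it.

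Sequence outside TADs was concentrated in a few wide stretches. Between TADs of the same microchromosome there were 78 stretches without a TAD, with a median width of 150 kb and 22100 kb in all. The 12 stretches of at least 500 kb held 47.5% of this sequence. The widest spanned 1700 kb on GGA12 from 13650001 to 15350000. It was followed by 1350 kb on GGA23 from 2700001 to 4050000, 1300 kb on GGA18 from 1850001 to 3150000, 1200 kb on GGA20 from 8000001 to 9200000, and 1000 kb on GGA24 from 3200001 to 4200000. All 5 chromosomes belonged to the group with low coverage. Wide stretches lower coverage by arithmetic, so this is not a separate observation. On GGA23 this 1 stretch made up 90.0% of the sequence between TADs, and without it TADs would cover 96.6% of the remaining span. The same calculation gave 88.1% for GGA18, 87.3% for GGA20 and 86.7% for GGA27, but only 84.9% for GGA24, 83.3% for GGA12 and 83.2% for GGA26, where other stretches without TADs remained. Assembly gaps and poorly mappable sequence were not examined, and their part in these stretches was not tested.

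In GGA12 the sequence outside TADs lay mostly in 1 region of the chromosome. From 11850001 to 15350000, over 3500 kb, the list held 5 TADs, each of 100 kb, and 4 stretches without TADs of 600, 100, 600 and 1700 kb. TADs covered 14.3% of this region and 89.4% of the rest of GGA12. Outside it the coverage of GGA12 was thus within the range of the well-covered chromosomes. The region was chosen after its values were seen. On GGA26, 2 stretches of 500 and 450 kb flanked an isolated TAD of 100 kb from 2200001 to 2300000, and these made up most of the uncovered sequence. GGA13 and GGA17 lacked TADs at their start, over 700 and 500 kb. Among the larger chromosomes, the first TAD began at 550001 on GGA6 and at 500001 on GGA9 and GGA10. Sequence before the first TAD was counted as part of the span. Whether it holds assembly gaps was not examined.

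Where TADs were present, they mostly adjoined. Of 461 pairs of neighbouring TADs on the microchromosomes, 383 (83.1%) met at a shared boundary without a gap. On GGA17 this held for all 39 pairs, so that its 40 TADs formed 1 unbroken run from 500001 to 11000000, which was 95.5% of the span. This was the longest run on microchromosomes both in number of TADs and in length (10500 kb). The next runs had 26 TADs each, over 7200 kb on GGA14 from 2650001 to 9850000 and over 6500 kb on GGA19 from 3500001 to 10000000. On GGA11 a run of 18 TADs from 11000001 to the last TAD end at 20250000 covered 9250 kb and included the largest TAD of this chromosome. The share of adjoining pairs was lowest on GGA24 (60.0%, 9 of 15 pairs), GGA26 (66.7%, 12 of 18) and GGA27 (68.4%, 13 of 19), where the longest runs had 6, 6 and 8 TADs.

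TADs of 100 kb were most frequent on GGA21, where they were 9 of 24 (37.5%), and on GGA15, with 15 of 41 (36.6%). They were least frequent on GGA23, with 3 of 19 (15.8%), and on GGA14, with 10 of 50. This share was unrelated to the span (r = 0.16, rho = 0.18), and the 5 chromosomes under 7 Mb were spread over its whole range. On GGA26, which had the lowest mean, 4 of 19 TADs (21.1%) were of 100 kb, and no TAD exceeded 400 kb.

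TADs near chromosome ends were smaller on most microchromosomes. TADs with their midpoint within 1 Mb of an end of the span had a mean size of 233 kb (n = 109 TADs), and 33.9% of them were of 100 kb. The mean was 252 kb at 1 to 2 Mb from the nearest end, 268 kb at 2 to 3 Mb, 390 kb at 3 to 5 Mb (n = 94 TADs on 11 chromosomes) and 333 kb farther inside (n = 101 TADs on 8 chromosomes). The share of 100 kb was 31.3%, 27.8%, 18.1% and 27.7% in the same order, so neither value changed steadily with the distance. Averaged per chromosome, the mean size was 239 ± 59.3 kb near the ends and 294 ± 53.1 kb farther inside (SD, n = 14 chromosomes). The interior mean was the higher on 11 of the 14 microchromosomes, equal on GGA18 (317 kb in both), and lower on GGA21 (253 against 286 kb) and GGA23 (200 against 262.5 kb). On GGA13 the difference was largest, with 150 kb near the ends and 351 kb inside. On GGA1 to GGA10 the values were 229 ± 75.6 and 353 ± 35.1 kb (SD, n = 10 chromosomes), and the interior mean was higher on all 10. The interior mean of microchromosomes differed from that of GGA1 to GGA10 by -59.7 kb (two-sided permutation test, p = 0.00438, adjusted 0.0131). A TAD whose midpoint lies within 1 Mb of an end cannot be larger than the distance to that end allows, so size and position are not independent here, and no test was made between ends and interior.

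**Figure D5:**
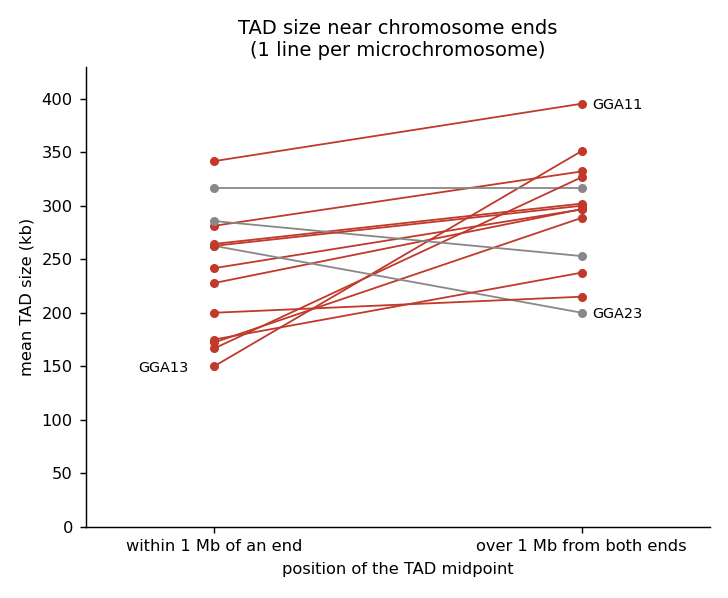
Mean TAD size in kb on each of the 14 microchromosomes, for TADs whose midpoint lies within 1 Mb of an end of the chromosome span (left) and over 1 Mb from both ends (right). Lines join the values of a chromosome, in red where the interior mean is higher (11 chromosomes) and in gray where it is not (GGA18, GGA21 and GGA23).

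The part of a chromosome that lies within 1 Mb of its ends grows as the chromosome shortens, from 9.9% of the span on GGA11 to 38.1% on GGA26. The trend of mean size with span was also computed with the terminal TADs left out. In that case r was 0.86 and rho was 0.83 (n = 14), with interior means from 395 kb on GGA11 down to 200 kb on GGA23. The length of a chromosome also limits how large its interior TADs can be, so their size and the span are not independent. The part of the ends in the trend was not tested. The mean size of TADs within 1 Mb of an end showed little relation to the span (r = 0.13, rho = 0.12). Leaving out terminal TADs was chosen after the values were seen.

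The first and last TADs of the microchromosomes were 28 in number, with a median size of 150 kb. At 200 kb or less were 20 of them. The other 8 lay on 6 chromosomes, and both end TADs were among them on GGA18 (700 and 400 kb) and on GGA19 (350 and 450 kb). In the study a terminal region of about 1 Mb on GGA11 is described as amplified. The last 1 Mb of the GGA11 span, from 19250001, was filled by 2 TADs. The first of them, from 19150001 to 20150000, had a size of 1000 kb and was thus 1 of the 18 TADs of 1 Mb or more. It was followed by a TAD of 100 kb that closed the chromosome. Whether the amplification had a part in the calls of these TADs was not tested.

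Whether TADs of microchromosomes differ from those of larger chromosomes was tested with the chromosome as the unit, comparing the 14 microchromosomes with GGA1 to GGA10 over 6 measures. Chromosomes of 1 list are not replicates of a condition, and the test sets the difference only against the spread between chromosomes. The mean TAD size per chromosome was 282 ± 48.0 kb (SD, n = 14) on microchromosomes and 345 ± 37.1 kb (SD, n = 10) on GGA1 to GGA10, with ranges from 208 to 389 kb and from 291 to 409 kb. This difference of 62.5 kb was larger than expected from the spread (two-sided permutation test, p = 0.00236, Benjamini-Hochberg adjusted over 6 measures 0.0119). Boundaries were denser on microchromosomes, with 3.68 ± 0.61 per Mb (SD, n = 14) against 3.03 ± 0.35 (SD, n = 10; two-sided permutation test, p = 0.00396, adjusted 0.0119). In both measures the classes overlapped, since 5 microchromosomes had a mean size and 7 a boundary density within the range of GGA1 to GGA10. Counting the outermost start and end of each chromosome raises the boundary density more on short chromosomes, so part of that difference follows from chromosome length.

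The other 4 measures did not pass the threshold of 0.05. The median size was 193 ± 33.1 kb against 220 ± 25.8 kb (two-sided permutation test, adjusted p = 0.17). The share of the span inside TADs was 84.1% ± 9.02 against 83.7% ± 6.44 (two-sided permutation test, adjusted p = 0.904). TADs of 100 kb made up 27.6% ± 6.64 against 25.1% ± 5.10, and 80.9% ± 11.3 against 76.5% ± 6.65 of neighbouring TADs adjoined (two-sided permutation tests, adjusted p = 0.391 for both). Coverage and adjoining pairs varied more between microchromosomes than among GGA1 to GGA10, as their SDs show. Each microchromosome had fewer TADs (16 to 52) than each of GGA1 to GGA10 (64 to 404), which by itself widens the spread. The difference in spread was not tested. These tests do not show that the classes are alike in those measures.

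The difference in mean size and in boundary density was not established against the chromosomes nearest in length. GGA5 to GGA10 had a mean TAD size of 320 ± 17.1 kb (SD, n = 6), which was 37.5 kb above that of microchromosomes (exact two-sided permutation test, p = 0.0815, adjusted 0.187). Their boundary density was 3.24 ± 0.30 per Mb (SD, n = 6; exact two-sided permutation test, p = 0.0938, adjusted 0.187). Without TADs under 150 kb, the difference of microchromosomes to GGA1 to GGA10 was -75.5 kb in mean size and no longer passed the threshold (two-sided permutation test, adjusted p = 0.0688).

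GGA10 and GGA11 lie on either side of the border between the classes and have nearly the same span, 20.45 and 20.25 Mb. GGA11 had 49 TADs with a mean of 389 kb and 2.77 boundaries per Mb, whereas GGA10 had 64 TADs with a mean of 291 kb and 3.62 boundaries per Mb. Both had a median of 200 kb, and TADs of 100 kb were more frequent on GGA11 (30.6%) than on GGA10 (17.2%). GGA11 had 6 TADs of 1 Mb or more and GGA10 had 1, so the microchromosome had the higher mean but not the higher median. Over all 24 autosomes of the list, Spearman rho with the span was 0.90 for mean size and -0.85 for boundary density, and 0.08 for coverage. The value for coverage joins coefficients of opposite sign, since rho was 0.53 among microchromosomes and -0.67 within GGA1 to GGA10. The relation among microchromosomes was loose. Its Pearson r was 0.42, but 0.090 with at least 20 TADs per chromosome and 0.10 without the widest stretch of each chromosome. Mean size thus tended to rise, and boundary density to fall, with chromosome length across both classes. The shape of these relations was not tested, and GGA10 and GGA11 differed in both measures at nearly the same span. Within GGA1 to GGA10 alone the mean also followed the span (r = 0.93, n = 10). Within GGA1 to GGA10, r was also 0.77 for the median, 0.64 for the share of 100 kb and -0.93 for adjoining pairs. Among microchromosomes these values were -0.06, 0.16 and 0.31.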

How the data were processed

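Hi-C libraries of HD3 cells were made with DpnII from 2 replicates. The authors mapped the reads to GalGal5 and filtered them with Juicer tools (Juicer 1.6 in the submitters' processing notes), pooled the contacts of the replicates and ran Armatus on 50 kb bins to call TADs. They deposited start and end positions, which were read as counted from 0 and are given here counted from 1. Both pairs of coordinates were the same in all 2389 entries. The depth behind a TAD is unknown, and precision is limited by the bin.

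TAD size was the number of bases from start to end, both included, and the chromosome span ran to the last TAD end, since chromosome lengths were not used. Chromosomes with at least 5 TADs entered the comparisons, and sex chromosomes were left out. Class means were compared by two-sided permutation tests with 100000 resamples (exact enumeration for classes under 10 chromosomes), with Benjamini-Hochberg adjustment over 6 measures and a threshold of 0.05. Where an alternative recomputed only some of the 6 measures, the adjustment kept the p-values of the main comparison for the others. The permutation test was tried on simulated normal values with equal SDs in both classes, whereas the SDs of the classes here differed. The exact enumeration was not tried on simulated data. Tests used scipy 1.17.1 under Python 3.11.15, tables pandas 2.3.3 and numpy 2.4.6, and plots matplotlib 3.10.9.

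The regions named were the 5 largest TADs, the 5 widest stretches between TADs, the longest run, the extreme chromosomes of each measure, the end of GGA11, and the first and last TADs. The members, measures and rules were chosen with earlier results of these data known. Alternatives changed the chromosomes compared, the TADs kept, the span and the coefficient. The gene table at hand is on another assembly, so genes and sequences are not reported here.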

Additional observations from a re-analysis of the deposited data

How the results depend on the processing

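TADs were called on combined contacts and depth was not used, so neither a replicate error nor values without 1 of the replicates could be given. No paired analysis was possible because the list holds 1 value per TAD for both replicates. Without TADs under 150 kb, the median size on microchromosomes was 250 kb. The mean over all their TADs, in place of the median, was 294 kb. With single chromosomes left out, the median stayed at 200 kb, and TADs held from 84.5% to 87.0% of the spans.

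Compared with GGA5 to GGA10 only, the differences in mean size (-37.5 kb) and boundary density (0.44 per Mb) no longer passed the threshold, and those in coverage (-2.35 percentage points) and adjoining pairs (-0.24) turned their sign, none past the threshold. Compared with GGA1 to GGA5 only, the median size passed it (-47.1 kb, exact two-sided permutation test, adjusted p = 0.0485) and the share of 100 kb turned its sign (-1.20 percentage points). Without TADs under 150 kb, mean size (-75.5 kb) and boundary density (0.53 per Mb) no longer passed, and coverage turned its sign (-1.59 percentage points). The cause was not tested. The other 20 of 29 alternatives for class differences kept direction and side of the threshold. They include the mean without the largest TAD of each chromosome (-77.1 kb) and without TADs near the ends (-59.7 kb), both chosen after seeing the data.

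For the trends with span, r for median size was 0.062 as Spearman rho, 0.55 over all autosomes and 0.34 without TADs under 150 kb. It also turned positive without GGA13 (0.08) or GGA24 (0.10), and ran from -0.22 to 0.10 with single chromosomes left out. For mean size r moved to 0.76 without the 2 chromosomes farthest from the median span, to 0.76 without the largest TADs and to 0.74 over all autosomes. For boundary density it moved to -0.67 and -0.60 (without the 2 farthest, and over all autosomes). For coverage it was 0.090 with at least 20 TADs per chromosome and -0.15 over all autosomes. For TADs of 100 kb it was -0.29 with at least 20 TADs per chromosome, and for adjoining pairs -0.43 over all autosomes. Among microchromosomes alone, r for coverage and for adjoining pairs was positive under every alternative run, from 0.090 to 0.62 for coverage and from 0.10 to 0.41 for adjoining pairs. With single chromosomes left out, r was from 0.80 to 0.88 for mean size, from -0.83 to -0.73 for boundary density, from 0.33 to 0.62 for coverage, from 0.0023 to 0.31 for 100 kb TADs and from 0.20 to 0.41 for adjoining pairs.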

Other observations

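TADs of 100 kb were about as frequent next to TADs of at least 1 Mb as among all TADs. The 18 TADs of at least 1 Mb on microchromosomes had 33 adjoining neighbours, of which 9 (27.3%) had a size of 100 kb, close to the 28.0% among all TADs of these chromosomes. On GGA1 to GGA10 it was 39 of 142 neighbours (27.5%), against 27.1% of all TADs there. The median size of the neighbours on microchromosomes was 150 kb, against 200 kb over all their TADs. Next to TADs of at least 500 kb, 27 of 94 adjoining neighbours (28.7%) on microchromosomes had a size of 100 kb, and the median was 200 kb. On GGA1 to GGA10 the share next to TADs of at least 500 kb was lower, with 109 of 475 neighbours (22.9%).

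The size of TADs in which a base of TAD sequence typically lies varied more than the median. When TADs were added up from the largest, 50% of the TAD sequence of GGA11 was reached at a size of 1100 kb. On the other microchromosomes this size was from 250 to 450 kb, and over GGA1 to GGA10 from 300 to 650 kb. GGA11 was the only autosome of the list above 650 kb. These values were looked at after the other results were known, and no test was made.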
